A study of Homo sapiens with 30 samples.

Results

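Open chromatin that RWPE1-ERG+mAKT cells shared with RWPE1+mAKT cells and not with RWPE1-ERG cells comprised 2439 ATAC-seq peaks, 5.84% of the 41731 peaks of the RWPE1-ERG+mAKT list on chromosomes 1 to 22 and X. ATAC-seq reads open chromatin by where a transposase can cut the DNA. The sites were selected on the deposited peak calls: a peak of the RWPE1-ERG+mAKT list was taken if it overlapped a peak of the RWPE1+mAKT list by at least 1 bp and no peak of the RWPE1-ERG list. Of the other peaks of that list, 34871 were open in all 3 lines, 2024 were open in RWPE1-ERG+mAKT and RWPE1-ERG cells only, and 2397 were open in RWPE1-ERG+mAKT cells alone. RWPE1 is an immortalized line of normal human prostate epithelium. It was infected with retroviruses that carried FLAG-tagged ERG, a constitutively active, myristoylated AKT (mAKT), both, or the empty vector, and was then kept under drug selection. ChIP-seq lists of RWPE1 cells with the phosphomimetic ERG S96E, and of the prostate cancer line VCaP, were used for overlaps only. The expression table covered all 4 lines (vector, ERG, mAKT and ERG+mAKT), and the ATAC-seq lists of the 3 lines other than vector were used. ATAC-seq of vector cells was not analysed under its own label, so the rule does not tell whether a site was closed before mAKT was added or was open and lost its call with ERG. Of the sites, 67.9% overlapped a list whose peak names mark it as ATAC-seq of RWPE1 cells and whose sample label says otherwise. There was 1 ATAC-seq or ChIP-seq library per line and 1 FPKM value per gene and line, pooled by the authors over 3 RNA-seq libraries. Values of single RNA-seq libraries were not analysed here, so no test between lines was run, and the 95% Wilson intervals given with shares cover counting error only.

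AKT is the kinase at the centre of the PI3K pathway, which growth factor receptors switch on. It promotes growth and survival, and one of its known actions is to keep FOXO transcription factors out of the nucleus. ERG is an ETS transcription factor that binds a GGAA core and is expressed in many prostate cancers through a gene fusion. In basal epithelial cells such as RWPE1, distal open sites commonly carry the AP-1 sequence bound by FOS and JUN proteins, the sequence of the TEAD factors that work with YAP, and that of p63, a p53 family factor.

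ERG was listed at 0.264 FPKM in vector, 358 in ERG, 0.435 in mAKT and 328 in ERG+mAKT cells. AKT1 was listed at 58.7, 64.2, 156 and 281 FPKM in the same order, so both genes were high in the lines labelled with them. The basal keratin KRT5 was at 3126, 1170, 3642 and 3519 FPKM. The luminal keratin KRT8 was at 622, 1769, 671 and 921 FPKM, and KRT18 at 817, 1843, 987 and 958 FPKM, so keratins of both layers were high. The luminal gene KLK3 and the leukocyte gene PTPRC were at or near 0 in all 4 lines, and the endothelial gene PECAM1 was at most 0.0253 FPKM. The ERG list was the longest of the 3 ATAC-seq lists, with 62950 peaks against 57616 for mAKT and 41731 for ERG+mAKT, so the sites lack a call in the list that called most. The number of fragments was given in the header of the mAKT list only (35688481), and the depth of the other ATAC-seq libraries is unknown.

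The strongest sites show what these regions looked like. Sequence was read at 9 of the 10 sites of highest fold enrichment, of which 4 held AP-1 in the 201 bp around the centre, 4 held an ETS core, 2 held TEAD, 1 held RUNX and 3 held none of the sequences marked. Of the 4 with AP-1, 3 are given 5′ to 3′ on the plus strand of GRCh37, the build that matches the hg19 positions of the lists. Capitals mark AP-1 (TGANTCA), TEAD (GGAATG), the ETS core (CAGGAA or CCGGAA), RUNX (TGTGGTT) or the p53 family sequence on either strand. TEAD and the ETS core can share bases, as in the run CATTCCGG of the site near ANXA1.
chr4:162857917-162858117, intron of FSTL5: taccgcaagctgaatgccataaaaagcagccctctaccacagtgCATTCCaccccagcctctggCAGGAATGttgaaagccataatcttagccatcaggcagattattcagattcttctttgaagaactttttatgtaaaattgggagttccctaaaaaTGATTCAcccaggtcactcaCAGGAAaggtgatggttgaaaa
chr9:75715342-75715542, between genes, nearest to ANXA1: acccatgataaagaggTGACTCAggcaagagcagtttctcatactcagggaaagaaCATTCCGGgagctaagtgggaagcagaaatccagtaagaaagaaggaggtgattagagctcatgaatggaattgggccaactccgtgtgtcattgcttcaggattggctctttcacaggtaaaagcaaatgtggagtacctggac
chr6:84577391-84577591, intron of CYB5R4: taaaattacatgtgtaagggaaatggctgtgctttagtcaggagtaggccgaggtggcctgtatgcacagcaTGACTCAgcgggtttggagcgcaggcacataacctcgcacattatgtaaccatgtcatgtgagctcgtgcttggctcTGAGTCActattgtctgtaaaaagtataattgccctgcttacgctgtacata
The site in FSTL5 (a secreted follistatin-like protein) spanned chr4:162857755-162858279, with a fold enrichment of 11.6 in ERG+mAKT and 7.99 in mAKT cells. It lay 226828 bp from the nearest peak of the ERG line, and FSTL5 was listed at 0 FPKM in all 4 lines. The site near ANXA1 (annexin A1) spanned chr9:75715285-75715599, with fold enrichments of 9.96 and 9.70, and lay 51048 bp from the gene. ANXA1 was at 424 FPKM in vector, 618 in ERG, 452 in mAKT and 533 in ERG+mAKT cells, so the site open in the mAKT lines was nearest to a gene whose highest values were in the ERG lines. The site in CYB5R4 spanned chr6:84577367-84577615 with fold enrichments of 9.86 and 7.46, and that near MIER3 spanned chr5:56346635-56346930 with 9.92 and 6.57. CYB5R4 ranged from 8.04 to 10.7 FPKM and MIER3 from 6.45 to 9.15 FPKM over the 4 lines, and both were lowest in ERG cells.

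The highest fold enrichment of any site was 12.0, at chr10:9111090-9111379, with 10.3 in mAKT cells. This site lay between genes, 127950 bp from LINC00709, and held none of the marked sequences. The third strongest, at chr19:7525438-7525817 in an intron of ARHGEF18 (a guanine nucleotide exchange factor), had a fold enrichment of 11.6, and 9.55 in mAKT cells. ARHGEF18 was at 19.1 FPKM in vector, 21.7 in ERG, 15.7 in mAKT and 14.8 in ERG+mAKT cells, so it was lower in both mAKT lines.

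Most sites were weak peaks. Their median fold enrichment in ERG+mAKT cells was 4.47 (quartiles 3.71 and 5.49), against 4.46 for the peaks open with ERG and not with mAKT, 3.93 for those open in ERG+mAKT cells alone and 5.82 for those open in all 3 lines. Their median width was 304 bp, against 494 bp for peaks open in all 3 lines. Of the 2439 sites, 1073 fell in the weakest 25.0% of the list by fold enrichment and 136 in the strongest 25.0%. In mAKT cells the peaks under the sites had a median fold enrichment of 4.69 and a median pileup of 23.6, against 6.10 and 47.6 under the peaks open in all 3 lines. Fold enrichment was higher in mAKT than in ERG+mAKT cells at 53.5% of the sites and at 54.3% of the peaks open in all 3 lines.

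**Figure D1:**
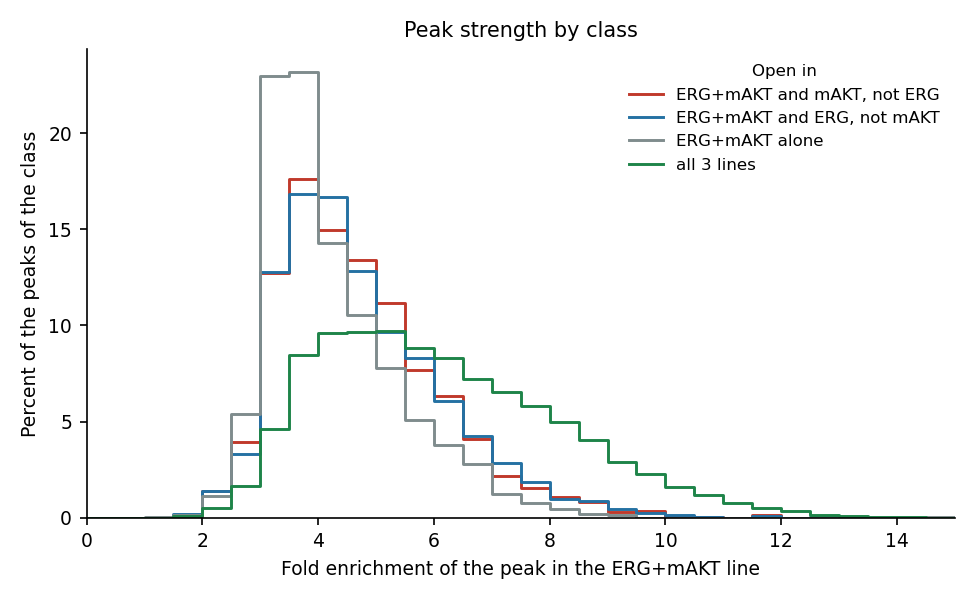
Distribution of fold enrichment in the RWPE1-ERG+mAKT ATAC-seq list (x axis, bins of 0.5) for the 4 classes of peaks, as a percentage of each class (y axis). The sites shared with mAKT cells (red) and the peaks shared with ERG cells (blue) lie nearly on one another, with medians of 4.47 and 4.46, below the peaks open in all 3 lines (green, 5.82), whose few values above the axis end, up to 24.1, are not drawn.

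The sites were usually distinct from ERG-line peaks and not the edges of them. The median distance to the nearest ERG-line peak was 9338 bp (quartiles 3587 and 25334 bp), 100 sites (4.10%) lay within 1000 bp of one and 24 within 500 bp. Just inside the rule, the site with the smallest overlap, chr9:140588710-140588924, shared 1 bp with a mAKT peak and had a fold enrichment of 2.76. The site at chr11:89597279-89597513, with a fold enrichment of 3.87, touched an ERG-line peak without overlapping it. Just outside, the peak at chr9:66977730-66978681 was left out for 1 bp shared with an ERG-line peak, with fold enrichments of 2.98 in ERG+mAKT and 3.74 in ERG cells. Such borderline cases were few: 11 sites shared under 50 bp with their mAKT peak, and 11 peaks were left out for an ERG-line overlap under 50 bp. A site without a call in ERG cells may still have had some signal there, since a list holds only what passed the peak caller's limit.

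Sequence at the sites was compared by 22 motifs within 100 bp of the peak centre, on both strands. AP-1, the sequence of FOS and JUN proteins, was the most frequent of those given here, in 825 sites or 33.8% (32.0 to 35.7%), against 22.8% of all 41731 peaks. Peaks open with ERG and not with mAKT held it in 32.7% (30.6 to 34.7%), an interval that overlaps, and peaks open in all 3 lines in 21.0%. The sites were poorer in GC, with a median of 43.8% against 55.7% for peaks open in all 3 lines, and among windows of 40 to 50% GC the shares with AP-1 were 43.6% (40.4 to 46.8%) and 38.1% (37.1 to 39.1%). In the stronger 50% of the list AP-1 was present in 43.8% (39.9 to 47.8%) of the sites and 47.5% (43.2 to 51.7%) of the peaks open with ERG. With the 3 lists cut to 33000 peaks each, it was more frequent in the sites, at 36.3% against 28.2%.

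The ETS core set the sites apart from those open with ERG. It was present in 26.2% of the sites (24.5 to 28.0%) and in 40.6% (38.5 to 42.8%) of the peaks open with ERG and not with mAKT, against 31.4% of all peaks. At 40 to 50% GC the values were 29.6% (26.8 to 32.6%) and 50.6% (46.9 to 54.2%). In the weaker 50% of the list by fold enrichment they were 25.3% and 38.8%, and in the stronger 50% 29.0% and 45.6%. The share in the sites lay below that of every other class of the list, with intervals that did not overlap except for peaks open in ERG+mAKT cells alone (29.3%, 27.5 to 31.2%). Peaks of the mAKT list open in neither line with ERG held it in 23.9% (23.0 to 24.8%).

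TEAD showed the opposite order. GGAATG was present in 20.3% of the sites (18.7 to 21.9%), 14.2% (12.7 to 15.8%) of the peaks open with ERG and not with mAKT, 16.0% (14.6 to 17.5%) of those open in ERG+mAKT cells alone and 14.5% of all peaks. The share was 26.3% (23.0 to 30.0%) in the stronger 50% of the list and 18.3% (16.6 to 20.2%) in the weaker 50%, against 15.3% and 13.8% for the peaks open with ERG. At 40 to 50% GC it was 25.4% (22.7 to 28.3%), against 18.9% (16.2 to 21.9%) with ERG and 21.7% (20.9 to 22.6%) in all 3 lines, and overlapped the 22.1% (19.1 to 25.3%) of peaks open in ERG+mAKT cells alone. Peaks of the mAKT list open in neither line with ERG held it in 16.6% (15.9 to 17.4%). AP-1 and TEAD occurred in the same window at 181 sites (7.42%, 6.45 to 8.53%). The shares were 4.74% (3.90 to 5.76%) of the peaks open with ERG and 4.34% of all peaks. AP-1 and the ETS core occurred together at 9.51% of the sites (8.41 to 10.7%). This was below the 15.0% (13.5 to 16.6%) of the peaks open with ERG and above the 7.62% (7.37 to 7.88%) of all peaks. At 40.7% (38.8 to 42.7%) of the sites the window held none of AP-1, TEAD and the ETS core. This was the case at 36.6% (34.5 to 38.7%) of the peaks open with ERG and 47.5% of all peaks.

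Other sequences were less frequent. The p53 family sequence (CATG, 6 bases of any kind and CATG again, bound by p63 in basal cells) was present in 2.26% of the sites (1.74 to 2.92%), 1.14% (0.758 to 1.70%) of the peaks open with ERG and not with mAKT and 0.930% of all peaks. At 40 to 50% GC these intervals overlapped, with 2.81% (1.93 to 4.09%) and 1.38% (0.750 to 2.52%). The FOX sequence TGTTTAC, bound by FOXO and other forkhead factors, was present in 5.78% (4.92 to 6.78%) of the sites and 6.57% (5.57 to 7.73%) of the peaks open with ERG. RUNX was present in 6.36% and 4.55%, with overlapping intervals. Over all peaks the shares were 3.70% for FOX and 4.09% for RUNX. KLF (GGGNGTGG) was present in 7.30% (6.33 to 8.40%) against 5.09% (4.21 to 6.13%) with ERG and 9.46% of all peaks, and overlapped at 40 to 50% GC. SP (GGGCGG) and TFAP2 (GCCNNNGGC) were less frequent in the sites, at 6.97% and 7.38% against 10.1% and 9.73% with ERG and 24.6% and 14.8% of all peaks, and at 40 to 50% GC both overlapped. Of the 22 motifs, 16 had intervals that overlapped between the sites and the peaks open with ERG. A match is a run of letters and does not show binding.

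**Figure D2:**
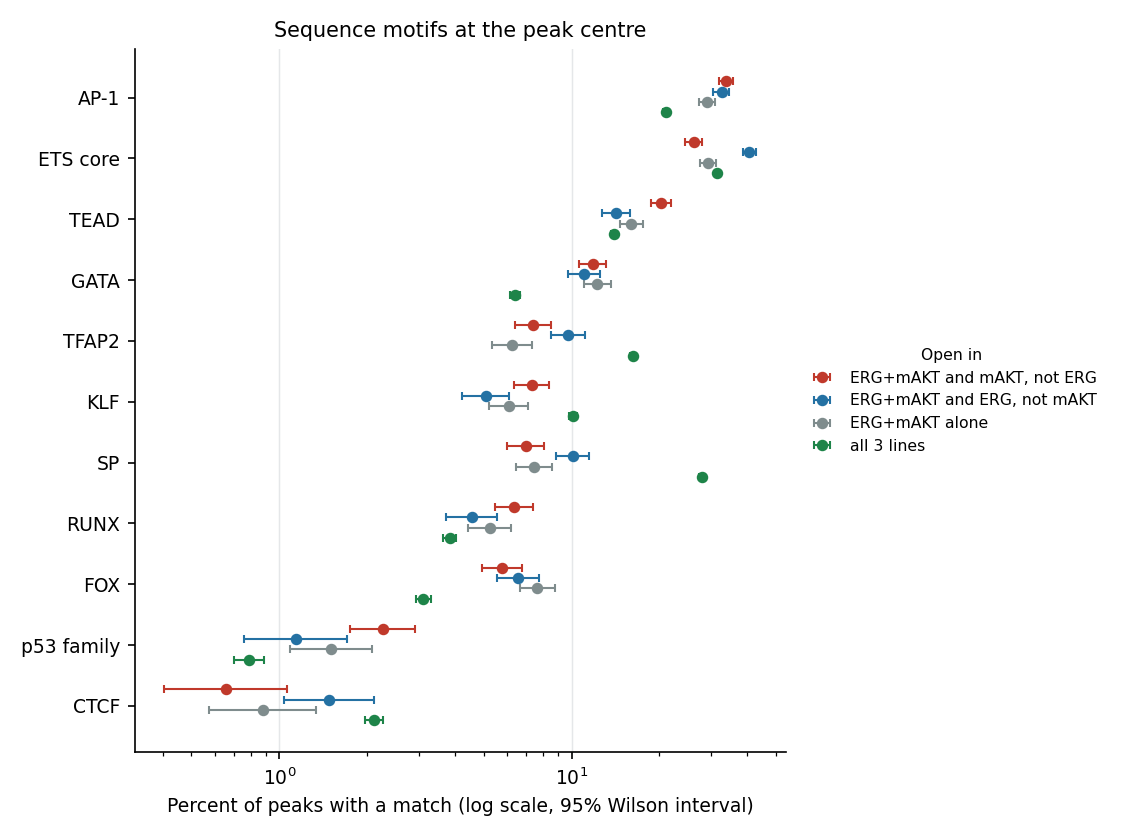
Share (percent) of open sites of RWPE1-ERG+mAKT cells with each of 11 motifs within 100 bp of the centre (x axis, log scale), by class, with 95% Wilson intervals for counting error. The sites shared with mAKT (red) lie left of those shared with ERG (blue) for the ETS core (26.2% and 40.6%) and right of them for TEAD (20.3% and 14.2%), and overlap them for AP-1 (33.8% and 32.7%).

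ERG itself was rarely called at the sites in the same line. ERG ChIP-seq of RWPE1-ERG+mAKT cells had a peak at 33 of the 2439 sites (1.35%, 0.965 to 1.89%), against 6.03% (5.07 to 7.15%) of the peaks open with ERG and not with mAKT, 4.03% (3.82 to 4.24%) of those open in all 3 lines and 3.85% of all peaks. The peaks open in ERG+mAKT cells alone, at 2.04% (1.55 to 2.69%), had an interval that overlaps that of the sites. In the weaker 50% of the list the values were 1.41% (0.965 to 2.06%) for the sites and 5.43% (4.39 to 6.69%) with ERG, and in the stronger 50% 1.17% (0.570 to 2.40%) and 7.72% (5.74 to 10.3%). Of the 33 sites, 14 held an ETS core, against 85 of the 122 ERG-bound peaks open with ERG and not with mAKT. Only 2 of the 33 reached a −log10 q-value of 2 in the ChIP-seq list, so most of these ERG calls were weak. In VCaP cells, a prostate cancer line with a fusion of ERG, ERG peaks overlapped 1.85% (1.38 to 2.46%) of the sites. The share was 2.47% (1.88 to 3.24%) of the peaks open with ERG, an interval that overlaps. Over all peaks it was 2.64% (2.49 to 2.80%), above the interval of the sites. In the weaker 50% of the list the sites, at 2.28% (1.69 to 3.07%), and all peaks, at 2.91% (2.69 to 3.15%), overlapped.

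Of the sites with an ERG ChIP-seq peak, that of highest fold enrichment lay 3496 bp from ADGRF1, an adhesion receptor gene. It spanned chr6:46961658-46961944, with a fold enrichment of 8.87 in ERG+mAKT and 10.2 in mAKT cells and an ERG ChIP-seq fold enrichment of 4.24 (−log10 q-value 0.686). ADGRF1 was at 1.28 FPKM in vector, 1.60 in ERG, 1.12 in mAKT and 4.97 in ERG+mAKT cells, highest in the line with both. Another lay at the start of ANKRD1, a muscle ankyrin repeat protein and a known YAP target, at chr10:92680980-92681358, with fold enrichments of 7.16 and 7.74. ANKRD1 was at 0.0146 FPKM in vector, 3.10 in ERG, 0.0615 in mAKT and 0.320 in ERG+mAKT cells, so the line without a called peak had the highest value. The window near ADGRF1 held AP-1, TEAD and an ETS core that shares bases with TEAD, and the window at ANKRD1 held none of the marked sequences (same strand and marks as above).
chr6:46961701-46961901, between genes, nearest to ADGRF1: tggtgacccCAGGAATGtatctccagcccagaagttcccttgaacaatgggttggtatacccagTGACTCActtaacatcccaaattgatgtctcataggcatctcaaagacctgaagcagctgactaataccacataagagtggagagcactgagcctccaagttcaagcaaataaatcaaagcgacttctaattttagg
chr10:92681069-92681269, at the start of ANKRD1: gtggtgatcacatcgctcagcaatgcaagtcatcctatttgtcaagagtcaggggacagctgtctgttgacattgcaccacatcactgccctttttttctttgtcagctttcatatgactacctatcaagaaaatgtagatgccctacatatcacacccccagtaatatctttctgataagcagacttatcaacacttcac

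ERK2, the kinase that the Ras pathway activates, was mapped by ChIP-seq in vector and ERG cells. Its peaks in vector cells overlapped 3.69% (3.01 to 4.51%) of the sites, 2.42% (1.84 to 3.19%) of the peaks open with ERG and not with mAKT and 7.48% (7.21 to 7.76%) of those open in all 3 lines. Its peaks in ERG cells overlapped 2.01% (1.52 to 2.65%), 1.24% (0.838 to 1.82%) and 5.44% (5.20 to 5.68%). Over all peaks the shares were 6.69% for vector and 4.80% for ERG cells. For peaks open in ERG+mAKT cells alone they were 1.79% and 1.34%. The ERK2 lists held 41265 peaks in vector and 5720 in ERG cells, so their overlaps are not comparable between lines without regard to length. The sites lay between the peaks open with ERG and those open in all 3 lines. Their intervals overlapped those of the peaks open with ERG in both lists. With the 3 ATAC-seq lists cut to 33000 peaks each, ERK2 peaks of ERG cells overlapped 3.06% of the sites and 3.29% of the peaks open with ERG, so that order turned.

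H3K27me3, the histone mark that Polycomb repressive complex 2 writes, was mapped in vector, ERG and ERG S96E cells, the last with a phosphomimetic ERG. Regions in vector cells overlapped 189 sites (7.75%, 6.75 to 8.88%), against 10.2% (8.98 to 11.6%) of the peaks open with ERG and not with mAKT, 12.3% (11.1 to 13.7%) of those open in ERG+mAKT cells alone and 5.01% of those open in all 3 lines. Regions in ERG cells overlapped 57 sites (2.34%, 1.81 to 3.02%) and regions in S96E cells 111 sites (4.55%, 3.79 to 5.45%). The share in S96E cells was below the 7.51% (6.44 to 8.74%) of the peaks open with ERG. Over all peaks the shares were 5.84% in vector, 1.80% in ERG and 5.49% in S96E cells. In the weaker 50% of the list, regions in vector cells overlapped 7.98% (6.82 to 9.30%) of the sites and 7.61% (7.25 to 7.97%) of all peaks. The H3K27me3 lists covered 242, 138 and 224 Mb in vector, ERG and S96E cells, so their overlaps are not comparable between lines without regard to length. Of the 189 sites marked in vector cells, 159 were not in a region of the ERG list, and 89.1% of the sites were in no region of the 3 lists. These values are given for the sites only, so they do not show a trait particular to them.

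**Figure D3:**
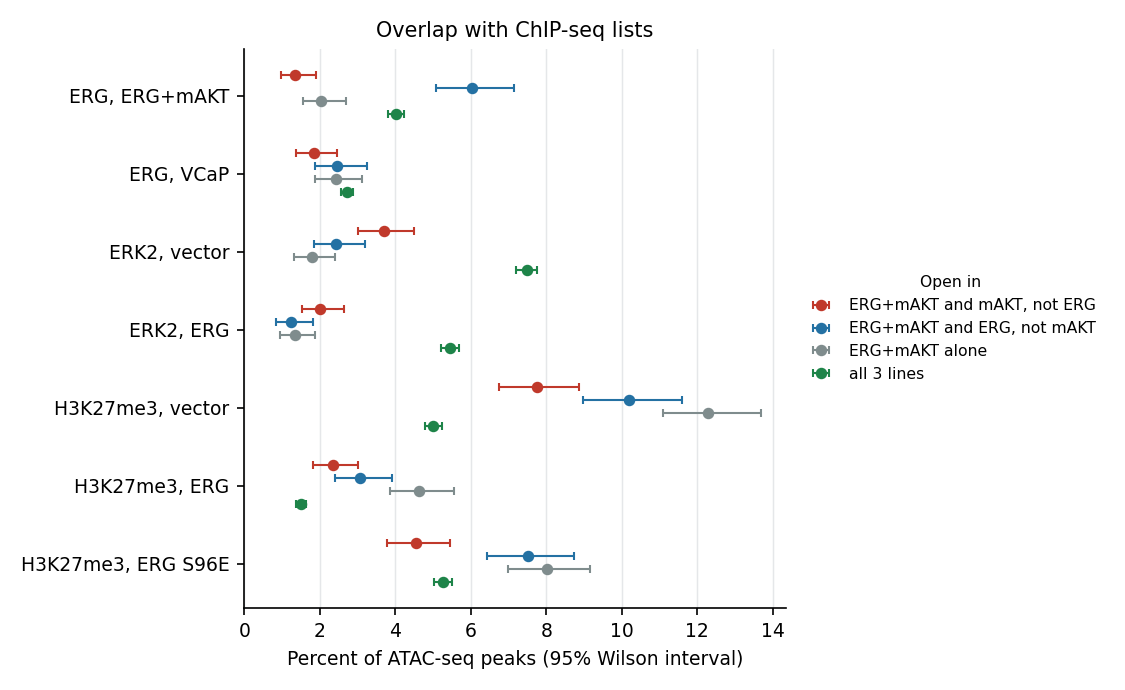
Share (percent) of open sites of RWPE1-ERG+mAKT cells that overlap each of 7 ChIP-seq lists (x axis), by class of peak, with 95% Wilson intervals for counting error. The sites shared with mAKT (red) overlap ERG peaks of the same line at 1.35%, with an interval that overlaps that of peaks open in ERG+mAKT cells alone (grey, 2.04%), while the peaks shared with ERG (blue) reach 6.03%.

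The sites were distal. Within 1 kb of the start of a coding gene in GENCODE lay 84 of them (3.44%, 2.79 to 4.24%), against 4.84% (3.99 to 5.87%) of the peaks open with ERG and not with mAKT and 28.2% of those open in all 3 lines. The median distance to a coding gene start was 53661 bp, against 19159 bp for peaks open in all 3 lines. By the position of the centre, 48.5% (46.6 to 50.5%) lay in an intron of a coding gene. This was the place of 43.6% (41.5 to 45.8%) of the peaks open with ERG and 38.5% of all peaks. Between genes lay 33.2% of the sites and 32.0% of all peaks, and in a long noncoding RNA gene 12.4% and 12.2%, which were close. In an untranslated region lay 3.65% of the sites and 12.4% of all peaks, and in another exon 2.21% and 4.95%. By chromosome, the sites made up between 2.77% (1.88 to 4.05%) of the list on chromosome 22 and 7.58% (6.49 to 8.82%) on chromosome 12. Chromosome 22 held 25 sites and 73 peaks open with ERG and not with mAKT, and chromosomes 9, 15, 18 and X also held fewer sites than such peaks, the reverse of the order in the whole list.

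By the loci of the expression table, 1341 sites (55.0%) lay inside a gene, and the 2439 sites had 2014 distinct nearest genes. Of these, 1109 (55.1%) reached 1 FPKM in any line and are called expressed here, against 48.3% of all genes in the table, and 14.2% were listed at 0 in all 4 lines. The locus of the nearest gene was shared with another gene at 671 sites, and the choice between such genes rests on their names only. For the 1109 expressed genes, a difference of at least 2-fold on the log2(FPKM + 1) scale was counted and read against all 12667 expressed genes. This scale understates differences of genes with low values. In such bulk values fewer cells with an RNA and less of it per cell cannot be told apart.

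Few of the nearest genes differed with mAKT. In mAKT over vector, 5 of the 1109 genes (0.451%, 0.193 to 1.05%) were at least 2-fold higher, against 1.14% of all genes, and 5 (0.451%) were at least 2-fold lower, against 0.813% of all genes. The nearest genes of the other classes had like shares higher in mAKT over vector, at 0.838% for peaks open with ERG, 0.410% for those open in ERG+mAKT cells alone and 0.514% for those open in all 3 lines. In ERG+mAKT over ERG, 2.34% (1.60 to 3.41%) were higher, against 2.02% of all genes, and 3.88% (2.89 to 5.18%) were lower, against 2.47% of all genes. The nearest genes of the peaks open with ERG and not with mAKT were at 1.80% higher and 3.35% lower in that comparison, close to those of the sites. In ERG over vector, 4.24% were higher and 1.08% lower, against 3.58% and 0.971% of all genes. In ERG+mAKT over mAKT, 1.35% were higher and 0.812% lower, against 2.03% and 0.868% of all genes. These comparisons share lines, and are not independent of one another. The median log2 ratio of the nearest genes was 0.01 in mAKT over vector and −0.07 in ERG+mAKT over ERG, against 0.02 and −0.04 over all expressed genes.

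The 5 genes higher in mAKT over vector were H3F3A, ALPP, MIR33B, LY6D and CALML3, and the 5 lower were CDH2, LTBP1, PID1, ATP8B2 and MIR7844. H3F3A, ALPP, LTBP1, PID1, ATP8B2 and MIR7844 were outside the rule for named genes and were named after their values were seen. ALPP, a placental alkaline phosphatase, was at 0.374 FPKM in vector, 0.223 in ERG, 1.95 in mAKT and 0.911 in ERG+mAKT cells. LTBP1, which binds latent TGF-beta, was at 5.84, 1.58, 2.03 and 1.16 FPKM in the same order, PID1 at 8.48, 2.47, 1.86 and 1.82, and ATP8B2 had log2 ratios of −1.19 in mAKT over vector and −1.12 in ERG over vector. These 3 genes were highest in vector cells and low with ERG as well as with mAKT.

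Of the 1109 genes, 3 (0.271%) were at least 2-fold higher in both mAKT lines than in both others, against 0.308% of all genes, and 1 (0.0902%) was at least 2-fold lower, against 0.103% of all genes. The 3 were CALML3, LY6D and MIR33B, and the 1 was CDH2. LY6D was outside the rule for named genes and was singled out after its values were seen.

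**Figure D4:**
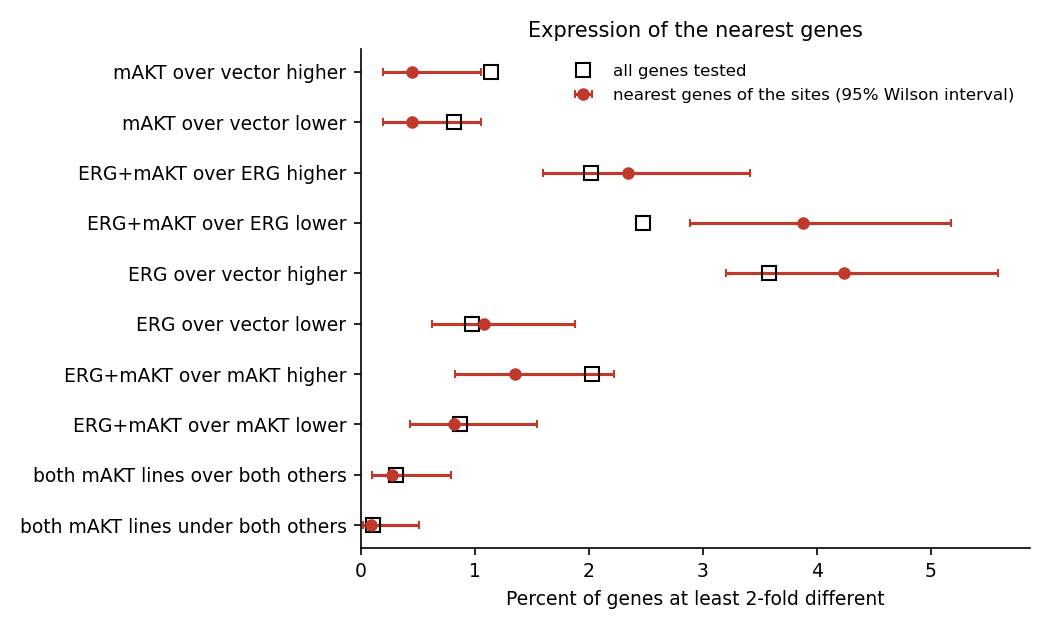
Percentage of genes at least 2-fold different on the log2(FPKM + 1) scale (x axis) for the 1109 expressed nearest genes of the sites (red, with 95% Wilson intervals for counting error) and for all 12667 expressed genes (open squares), in each comparison of lines. The open square lies inside the red interval in all but 2 comparisons, higher in mAKT over vector (0.451% and 1.14%) and lower in ERG+mAKT over ERG (3.88% and 2.47%).

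Among the 177 expressed genes nearest to 2 or more sites, 6.78% (3.92 to 11.5%) were at least 2-fold lower in ERG+mAKT than in ERG cells, against 2.47% of all expressed genes. In ERG over vector, 6.21% (3.51 to 10.8%) of the 177 were at least 2-fold higher, against 3.58% of all. Such genes are not given for the other classes of peaks, so this does not show a trait particular to the sites. The 12 genes lower in ERG+mAKT than in ERG cells were looked at after the count was seen, and that lower value is what picked them. IGFBP3, which binds insulin-like growth factors, was nearest to 4 sites, the strongest of them 224145 bp away. It was at 4.44 FPKM in vector, 41.1 in ERG, 3.31 in mAKT and 13.7 in ERG+mAKT cells. CCND2, a D-type cyclin, was nearest to 2 sites, the stronger 105508 bp away, and was at 26.3, 99.3, 32.0 and 36.1 FPKM in the same order. DDAH1, an enzyme that breaks down methylated arginine, held 3 sites and was at 7.34, 16.3, 5.72 and 7.06 FPKM. AMIGO2, an adhesion gene, had its highest value in vector cells (26.7, 17.2, 19.2 and 7.73 FPKM).

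Genes higher in both mAKT lines included CALML3, LY6D and DST, which are genes of epithelium. The basal epithelial genes DKK3 and LAMA3 were lower in both mAKT lines, so such genes had no common direction. CALML3, a calmodulin-like protein of epithelium, was at 44.6 FPKM in vector, 24.2 in ERG, 92.7 in mAKT and 103 in ERG+mAKT cells. Its site, chr10:5593218-5593964, was 24987 bp away and weak, with fold enrichments of 2.44 and 2.64. LY6D, a surface marker of squamous epithelium, was at 0.470, 0.241, 3.44 and 3.95 FPKM, and its site lay 1785 bp away. DST, whose epithelial form anchors keratin to hemidesmosomes, held 2 sites in introns and was at 22.2, 13.3, 33.9 and 33.3 FPKM. All 3 genes were picked because both mAKT lines were above both others, so that order is not a result. Which of the other lines was lower was not set by this, and ERG cells had the lowest value in each.

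Further genes of this set were picked for the same order of lines. TNFAIP2 was at 3.08 FPKM in vector, 3.00 in ERG, 6.12 in mAKT and 8.38 in ERG+mAKT cells, with a site 6501 bp away. UNC5B, a netrin receptor, was at 4.80, 1.84, 6.99 and 8.02 FPKM, with a site 112345 bp away. FAM83F was at 3.44, 4.70, 6.71 and 12.2 FPKM and held its site in an intron. FABP5, a fatty acid binding protein of epidermis, was at 112, 105, 162 and 184 FPKM. CELSR2, IMPA2 and CA2 completed the list, with log2 ratios of 0.46, 0.43 and 0.40 in mAKT over vector and of 0.77, 0.81 and 1.29 in ERG+mAKT over ERG. MIR33B was listed at 0 in vector and ERG cells and at 16.2 and 25.6 FPKM in mAKT and ERG+mAKT cells. Its locus is shared by 6 genes and its site lay in an intron of SREBF1, so this value may not be that of the small RNA.

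Genes lower in both mAKT lines were led by CDH2, which encodes N-cadherin, a mesenchymal adhesion protein. CDH2 was at 3.04 FPKM in vector, 7.38 in ERG, 0.610 in mAKT and 0.666 in ERG+mAKT cells, a log2 ratio of −1.33 in mAKT over vector and −2.33 in ERG+mAKT over ERG. It had 2 sites: chr18:25864200-25864455, 106790 bp from the gene with fold enrichments of 9.56 and 7.15, and chr18:25501988-25502274, 28653 bp from it with 4.11 and 5.71. CDH2, picked for its lower values in the mAKT lines, was thus nearest to a strong site open in those lines. The strongest window of CDH2 is shown with that of DST, whose values ran the other way, chosen after the FPKM values were seen.
chr18:25864227-25864427, between genes, nearest to CDH2: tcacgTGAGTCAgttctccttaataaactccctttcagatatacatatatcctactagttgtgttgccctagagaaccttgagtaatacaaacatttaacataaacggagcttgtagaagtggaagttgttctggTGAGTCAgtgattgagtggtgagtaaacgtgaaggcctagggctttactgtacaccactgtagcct
chr6:56631712-56631912, intron of DST: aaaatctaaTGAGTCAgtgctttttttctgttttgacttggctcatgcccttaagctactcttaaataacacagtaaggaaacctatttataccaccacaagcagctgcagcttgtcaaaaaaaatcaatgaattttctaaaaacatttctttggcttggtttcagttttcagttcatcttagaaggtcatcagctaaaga
The CDH2 window held AP-1 at 2 places and the DST window held it once.

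KRTAP2-3, a hair keratin-associated gene with near-identical paralogs whose reads cannot be told apart with certainty, was at 5.89 FPKM in vector, 39.1 in ERG, 2.66 in mAKT and 3.36 in ERG+mAKT cells. Its site lay 139 bp from the gene. PLCB4, a phospholipase C, was at 4.15, 22.8, 2.30 and 1.93 FPKM, and NEDD4L, a ubiquitin ligase, at 9.61, 17.4, 5.99 and 5.66 FPKM. Both held their site in an intron, and both had their highest value in ERG cells. PRR5L, a partner of mTOR complex 2, was at 4.01, 7.07, 2.62 and 2.75 FPKM. MMD and DKK3, a secreted protein of basal prostate epithelium, had log2 ratios of −0.51 and −0.45 in mAKT over vector.

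**Figure D5:**
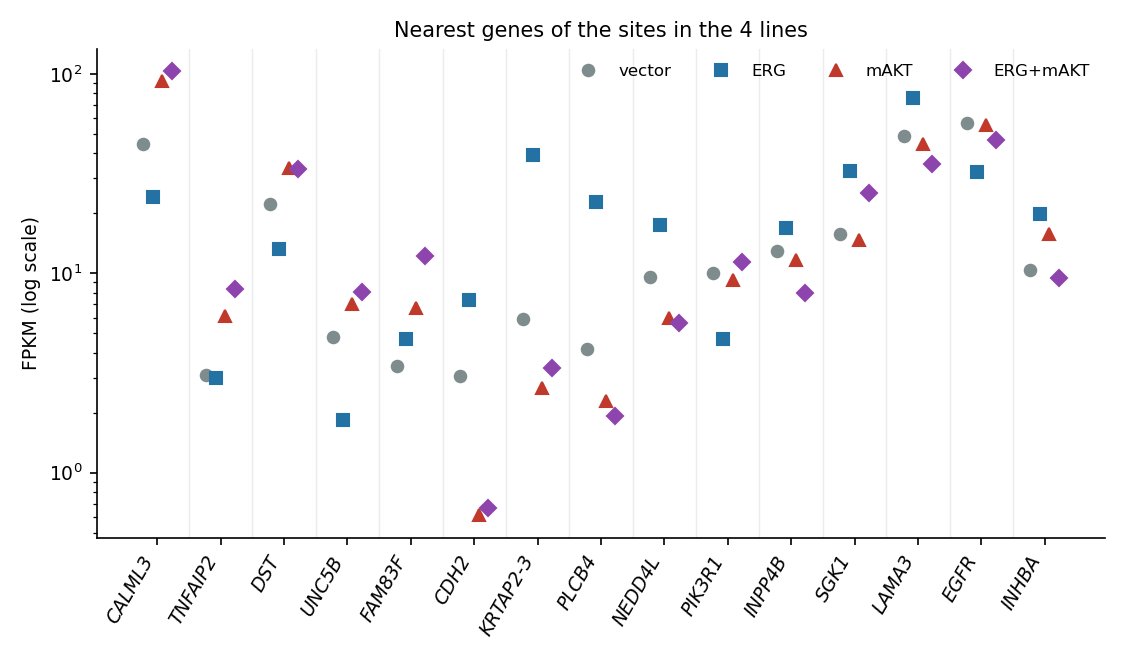
FPKM (y axis, log scale) of 15 nearest genes of the sites in the 4 lines, 1 pooled value per gene and line with no replicate error. CALML3, TNFAIP2, DST, UNC5B and FAM83F were picked for having both mAKT values (triangles and diamonds) above both others. CDH2, KRTAP2-3, PLCB4 and NEDD4L were picked for having them below. INPP4B and LAMA3 also have them below, while PIK3R1, SGK1, EGFR and INHBA show no such split.

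Genes of the PI3K/AKT pathway were among the nearest genes without a common direction. Of 39 such genes in the table, 11 were nearest to a site, against 7.67% of all genes, and all 11 were expressed. In mAKT over vector 0 of the 11 were at least 2-fold higher or lower. In ERG+mAKT over ERG, 1 was at least 2-fold higher and 1 lower. The higher was PIK3R1, the regulatory subunit of PI3K, at 10.0 FPKM in vector, 4.67 in ERG, 9.31 in mAKT and 11.4 in ERG+mAKT cells. INPP4B, a phosphatase of the pathway, was at 12.9, 16.8, 11.6 and 7.99 FPKM. SGK1, a kinase related to AKT, was at 15.7, 32.7, 14.7 and 25.3 FPKM, with 2 sites, one in its intron with a fold enrichment of 8.60. BCL6, a known FOXO target, was at 4.76, 1.68, 3.20 and 4.21 FPKM. PIK3CB, RICTOR, IGF1R, ERBB3 and EIF4EBP1 had log2 ratios between −0.09 and 0.43 in mAKT over vector.

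The other gene groups are read against the same 7.67% of all genes. Of 46 epidermal differentiation genes, 2 were nearest to a site and 1 of them was expressed. The other, MAF, was at most 0.408 FPKM. Of the 35 expressed genes of that list, 13 were at least 2-fold higher in mAKT than in vector cells, against 1.14% of all expressed genes. In ERG+mAKT over ERG 25 were higher, against 2.02%. With 7.67% of all genes nearest to a site, most genes of any list have none. Whether the epidermal genes lie near such sites less often than other genes was not tested. Of 21 basal epithelial genes, 5 were nearest to a site, and in ERG+mAKT over ERG DST was at least 2-fold higher and LAMA3 lower. LAMA3, a chain of laminin-332, held 2 sites and was at 49.1, 75.9, 44.6 and 35.2 FPKM, while EGFR was at 57.1, 32.4, 55.4 and 46.4 FPKM and ITGA6 at 125, 70.9, 116 and 67.2 FPKM. These genes followed no common order over the lines.

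Of 26 luminal genes, 3 were nearest to a site and 0 of the 2 expressed ones were at least 2-fold different in either comparison. CLDN4, a tight junction protein, had 2 sites and was at 8.23, 14.9, 14.0 and 17.6 FPKM, and FOXA1, the luminal forkhead factor, was at 3.24, 4.66, 3.28 and 3.19 FPKM. Of 36 mesenchymal genes, 5 were nearest to a site and CDH2 alone of the 4 expressed was at least 2-fold lower with mAKT, in both comparisons. MMP2 was at 1.59, 1.39, 0.483 and 0.481 FPKM, and COL5A1 at 1.79, 5.98, 1.44 and 2.56 FPKM. Of 26 ERK feedback genes, 6 were nearest to a site and 0 were at least 2-fold different. DUSP5, a phosphatase of ERK, was nearest to 3 sites and was at 39.1 FPKM in vector, 33.0 in ERG and 23.7 in ERG+mAKT cells, with its highest value in mAKT cells, and the EGFR ligand AREG, with 2 sites, was at 8.95, 7.71, 8.66 and 4.84 FPKM. Both were lowest in the line with ERG and mAKT. Of 14 genes of AP-1 subunits, 0 were nearest to a site.

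Of 17 endothelial genes, where ERG is normally expressed, 4 were nearest to a site: CDH5, TEK, ENG and ERG itself. The site in the ERG gene, chr21:39858271-39858477, had fold enrichments of 6.28 and 5.72. CDH5 was at most 0.210 FPKM and TEK at most 0.0271 FPKM, and ENG ranged from 12.1 to 15.4 FPKM. None of the expressed ones was at least 2-fold different in ERG+mAKT over ERG or in mAKT over vector.

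The genes with most sites were mostly silent or stable. TPTE and MIR4436A, with 6 sites each, and ZNF733P, with 5, were listed at 0 in all 4 lines. None of these sites lay inside the gene, and the strongest lay 728198 bp from MIR4436A and 1695862 bp from ZNF733P. The 6 sites nearest to TPTE lay between chr21:10699211 and chr21:10781052, next to the centromere, with fold enrichments of 2.56 to 3.29 in ERG+mAKT and 2.35 to 3.59 in mAKT cells. These values lay below the lower quartile of all sites. CLSTN1 held 5 sites and was at 56.2, 52.0, 57.4 and 49.0 FPKM, but its locus is shared by 4 genes, and the strongest of these sites lay in an intron of PIK3CD, a catalytic subunit of PI3K. EMB, with 5 sites, was at 23.0, 22.3, 22.3 and 21.1 FPKM, and ARHGEF28, with 4 intronic sites, at 8.58, 14.2, 8.44 and 9.68 FPKM. Of the EMB sites 1 lay inside the gene, and the others were at least 156998 bp from it. NR5A2, ALG10B, CACNA1C and CHN2 were at or below 2.37 FPKM in all 4 lines. In 1688 of the 2014 nearest genes there was 1 site only.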

How the data were processed

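ATAC-seq, ChIP-seq and RNA-seq were conducted by the authors in RWPE1 lines, and ERG ChIP-seq also in VCaP cells. ATAC-seq and ChIP-seq reads were aligned to hg19 with Bowtie2 and duplicates were removed. Peaks were called with MACS2, on 1 library per line for ATAC-seq (broad setting) and on DNA pooled from 3 experiments for ChIP-seq. Black list regions were removed for ChIP-seq, and for ATAC-seq such a step is not given in the sources used here. The deposited lists give a pileup signal, a fold enrichment ratio, and a −log10 p-value and q-value per peak, and values below the caller's limit are not in them. RNA-seq reads were aligned with TopHat2, and the authors deposited 1 FPKM value per gene and line from Cuffdiff, pooled over 3 libraries, with 0 columns of single samples. The Cuffdiff fold changes, test scores, p-values and q-values of pairs of lines were not used.

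Peaks on chromosomes 1 to 22 and X were kept (350 of 42081 were left out), and 0 kept peaks lay beyond a GRCh37 chromosome end. Overlap means at least 1 bp. Motifs were searched in 201 bp around the centre. Those not spelled out in the results included CAGCTG for E-box proteins, AGATAA for the GATA factors and ACAATGG for SOX factors. Longer ones were TGACGTCA for CRE, AACCNGTT for GRHL, TGACNNNGC for the antioxidant response, TTCCNGGAA for STAT and ATGCAAAT for POU, and those of C/EBP, NFI, CTCF, NF-kB and IRF are given by name. Gene starts came from GENCODE release 44 mapped to GRCh37. The nearest gene is the one with the least distance to its locus, with ties to the shorter locus and then by name. Genes that reached 1 FPKM in any line were compared on log2(FPKM + 1), and a difference of 2-fold was counted. With 1 value per line, no p-values or SDs are given and no library was left out. The members and lists were chosen with earlier results of these data known. Named genes are the 10 with most sites (ties by name), the 10 highest and 8 lowest in both mAKT lines against both others that reached 5 FPKM in any line, nearest genes in the lists, and the nearest genes of the 10 strongest sites and of the 5 strongest with an ERG peak. Genes outside it are named as such where they are given. Some genes and sequences that these rules pick are not reported here. The alternatives were the 33000 peaks of lowest p-value of each list, a gap of 1000 bp to ERG-line peaks, stricter limits, other windows, a pseudocount of 0.1 and no FPKM filter. A list attached to the LY294002-treated VCaP sample holds peaks that its label does not describe and was kept out of the comparisons. Code was tested on simulated data. The genome was read with pysam 0.24.0 and samtools 1.23.1, tables were made with pandas 2.3.3 and numpy 2.4.6 under Python 3.11.15, and plots with matplotlib 3.10.9.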

Additional observations from a re-analysis of the deposited data

Results flagged for a closer look

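The list attached to the LY294002-treated VCaP ERG ChIP-seq sample has peak names that mark it as broad ATAC-seq peaks of RWPE1 cells, so it was put in no group and used for none of the report's comparisons between lines. Its peaks overlapped 67.9% of the 2439 sites (66.0 to 69.7%, 95% Wilson interval), 39.8% of the peaks open with ERG and not with mAKT, 14.4% of those open in ERG+mAKT cells alone and 96.6% of those open in all 3 lines. TEAD was present in 21.6% (19.6 to 23.6%) of the sites in that list and in 17.6% (15.1 to 20.4%) of the 783 others, AP-1 in 33.5% and 34.5%, and the ETS core in 26.4% and 25.9%, all with overlapping intervals. Median fold enrichment in ERG+mAKT cells was 4.58 and 4.29.

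In 3 nearest genes the log2(FPKM + 1) ratio ran one way in mAKT over vector and the other way in ERG+mAKT over ERG, and the difference was not tested, since each is 1 pooled value per line. INHBA, a subunit of activin, had ratios of 0.55 and −0.98, from 10.4 FPKM in vector, 19.8 in ERG, 15.7 in mAKT and 9.50 in ERG+mAKT cells. H3F3A, a gene of histone H3.3 with near-identical copies that make its value uncertain, had ratios of 2.30 and −0.82, from 20.5, 34.3, 105 and 18.9 FPKM. MIR7844, whose locus is shared with another gene, had ratios of −1.58 and 4.43, from 13.5, 0, 3.84 and 20.6 FPKM, and its 0 in ERG cells can be a failed estimate.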

How the results depend on the processing

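No paired analysis was possible because each line has 1 pooled FPKM value or 1 peak list. Of 57 alternative values for 13 results, 33 stayed within the main interval (or, for counts of sites, within 1.5 times) and 24 moved. The number of sites was 3760 with the 33000 peaks of lowest p-value of each list and 1435 with a −log10 q-value of at least 5, and it was 2302 to 2339 under the other alternatives. With the 33000 peaks, shares became 2.26% for ERG ChIP-seq, 6.06% and 1.09% for H3K27me3 of vector and ERG cells, 3.06% for ERK2 of ERG cells (3.29% of the peaks open with ERG), 9.60% for gene starts, 36.3% for AP-1 and 29.1% for the ETS core. The share of peaks open with ERG and not with mAKT was then 7.35% for ERG ChIP-seq, 28.2% for AP-1, 38.9% for the ETS core and 13.7% for TEAD, against 20.8% of the sites for TEAD. A −log10 q-value of at least 2 left 0.0820% with an ERG peak and 0.123% with an ERK2 peak, and a fold enrichment of at least 2 left 1.93% and 1.39% with H3K27me3 of vector and ERG cells, since fewer peaks remain. Windows of 50 bp to either side gave 18.0% for AP-1, 14.0% for the ETS core and 11.3% for TEAD, and whole peaks 50.3%, 39.8% and 31.6%, since less or more sequence is searched. For the peaks open with ERG, these windows gave 23.2% and 55.7% for the ETS core and 7.26% and 22.7% for TEAD. The weaker 50% of the list, an alternative chosen after seeing the data, as were all for TEAD, gave 30.6% for AP-1 and 18.3% for TEAD. Without an FPKM filter 1.29% of nearest genes were higher and 2.14% lower in ERG+mAKT over ERG, against 0.975% and 1.19% of all genes, and with a pseudocount of 0.1 FPKM 6.22% were lower, against 3.66%. Genes that share their locus with no other, also chosen after seeing the data, gave 0.235% and 0.471% for mAKT over vector. Depth is unknown for all but 1 of the 3 ATAC-seq libraries, and how many sites it decides was not tested.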
